A study of Mus musculus with 6 samples.

Results

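Glycolysis turns glucose into pyruvate and lactate, and the transcriptional response to low oxygen raises many of its genes. The 37 genes described here follow glucose from entry to lactate exit (28 genes) or belong to the hypoxia response (9 genes). They were taken by symbol from the deposited table of 16775 genes, where all 37 were found, and all 37 passed the filter on low counts that left 12619 genes for testing. Osteoclasts are the multinucleated cells that resorb bone. RNA-seq libraries of osteoclasts treated with verapamil, a drug that blocks L-type calcium channels, were compared with libraries of untreated control osteoclasts, to see what the drug does to their gene expression. The verapamil group had 3 libraries (replicates 1 to 3) and the control group 2 (replicates 1 and 3), and control replicate 2 was not analysed here. Both groups were wild-type mouse bone marrow macrophages grown in 10% serum with 30 ng/ml M-CSF, with 50 ng/ml RANKL to make them osteoclasts. The titles give day 5, while the protocol runs to a later day. The labels give no dose or timing of verapamil, no mouse strain and no low-oxygen step, and nothing says whether the replicates are separate mice or cultures. The p-values therefore rest on the spread between these 5 libraries, which may be technical.

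The libraries held 20202340 to 21494523 estimated reads. The controls were less alike (Pearson correlation of log2 CPM across genes 0.9718) than the verapamil libraries (0.9913 to 0.9929). The summed level of 10 osteoclast markers was 3304 to 3454 CPM (the read count relative to library size, after TMM scaling) with verapamil, against 7025 and 7703 CPM in controls, with 1 marker higher and 7 lower by the test used below. Over all genes tested, that test called 9.99% higher and 15.4% lower. All 12 tested of 15 stromal cell and osteoblast markers were lower, with sums of 687 to 711 CPM against 1949 and 2157 CPM. For 8 macrophage markers the sums were 4848 to 4993 CPM against 7817 and 7136 CPM, and 6 were lower and 0 higher. Neutrophil markers summed to 5.94 to 6.56 CPM against 15.5 and 11.8 CPM, with Ly6g at 1 read with verapamil and 0 in controls. Erythroid markers summed to 0.0492 to 0.155 CPM against 0.0449 and 0.128 CPM, with Hba-a1 at 0 reads, and lymphocyte markers to 0.0492 to 0.103 CPM against 0.0449 and 0.0854 CPM. Dendritic cell markers summed to 1.86 to 3.01 CPM against 14.3 and 9.26 CPM. Most of each sum was H2-Ab1 (1.39 to 2.21 CPM against 13.4 and 8.97 CPM), the only one of 6 with enough reads to be tested. Among the others, Clec9a had 18 reads with verapamil and 7 in controls, and Xcr1 13 and 17. Endothelial markers summed to 28.0 to 33.3 CPM against 5.98 and 8.41 CPM, nearly all of it Kdr with verapamil, and of 3 tested Kdr was called higher and Emcn and Egfl7 lower. The part of these cell type differences in the results below was not tested. In such bulk libraries, fewer cells of a type and less RNA per cell cannot be told apart.

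As background, glucose enters through facilitative transporters, is trapped by hexokinases, committed by phosphofructokinase, split by aldolase, and oxidised to pyruvate by the lower steps. Lactate dehydrogenase then reduces pyruvate to lactate, which leaves with a proton through monocarboxylate transporters, unless pyruvate enters mitochondria, where pyruvate dehydrogenase kinases close the gate and phosphatases open it. The transcription factor HIF-1 drives most of these genes under low oxygen, when prolyl hydroxylases stop marking its alpha subunit for destruction. Osteoclasts are rich in mitochondria, and glycolysis also feeds them during resorption.

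Called genes of the same step moved in opposite directions for the enolases and the lactate transporters. Hexokinase estimates were all higher with verapamil, and lactate dehydrogenase estimates all lower. Aldoa, Gapdh and Pkm, the most abundant of the genes by CPM, were lower by estimate, but only Pkm was called. Eno1, also abundant, fell by 0.91 on the log2 scale. Of the 37 genes, 8 were higher and 8 lower with verapamil in edgeR's quasi-likelihood test (Benjamini-Hochberg adjusted p under 0.05 over all genes tested, here "called"). That is 43.2% of them, beside 25.4% of all genes tested, of which 9.99% were higher and 15.4% lower. The median log2 fold change of the 37 genes was -0.17, and that of all genes tested was -0.01. Among the 28 glycolysis and lactate genes 6 were higher (Slc2a3, Hk2, Hk3, Aldoc, Eno2 and Slc16a1) and 7 lower (Pfkl, Eno1, Pkm, Ldha, Ldhb, Pdk3 and Slc16a3), with a median of -0.17. Among the 9 hypoxia genes 2 were higher (Bnip3l and Ndrg1) and 1 lower (Adm), with a median of -0.27. The ranges of the groups did not overlap for 25 of the 37 genes, beside 56.7% of all genes tested: 10 lay wholly higher with verapamil (27.7% of all genes) and 15 wholly lower (29% of all genes). Under upper quartile scaling, where the median of all genes moved to -0.13, the called glycolysis and lactate genes were 5 higher and 8 lower, and their median was -0.29. That scaling also moved the share of higher genes among all calls to 28.2%, against 39.4% with TMM.

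**Figure D1:**
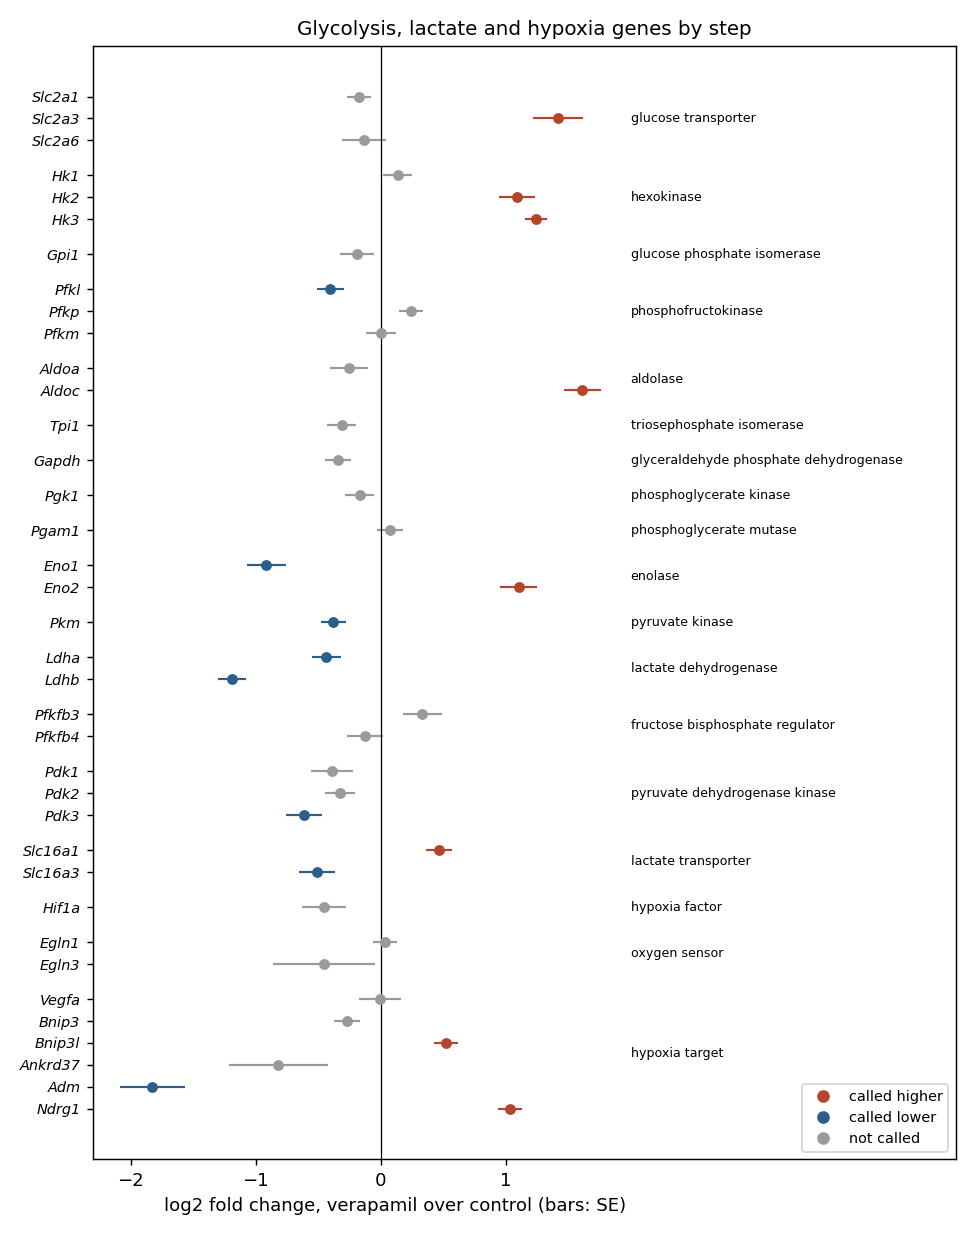
Log2 fold change of verapamil over control (x axis) for the 37 genes, grouped down the page by step, with bars for the standard error of the edgeR test. Genes called higher are red, called lower blue and not called grey. Within the glucose transporters, hexokinases, aldolases, enolases and lactate transporters, genes of 1 step lie apart, from 1.61 for Aldoc to -1.82 for Adm over the whole set.

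Promoter sequences from RefSeq (build GRCm38.p6) were on hand for 34 of the 37 genes. Those of 6 genes are shown as examples from several steps: Hk3, Aldoc and Eno2 were called higher, Eno1, Ldha and Adm lower, and Eno1 and Eno2 share a step. Each is the 250 bases before the start site, 5′ to 3′ on the gene's strand, and capitals mark ACGTG or GCGTG on either strand, the core letters of the hypoxia response element that HIF binds. Where RefSeq lists several starts, the one nearest the start of the principal GENCODE transcript was taken, which lay 244 bases away for Eno1, 105 for Aldoc and 49 for Ldha.
Hk3, chr13:55021386-55021635, minus strand: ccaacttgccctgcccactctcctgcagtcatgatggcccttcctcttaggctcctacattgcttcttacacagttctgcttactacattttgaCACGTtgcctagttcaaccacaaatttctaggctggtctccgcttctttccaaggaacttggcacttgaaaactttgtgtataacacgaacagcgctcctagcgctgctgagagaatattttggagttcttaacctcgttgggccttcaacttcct
Aldoc, chr11:78322823-78323072, plus strand: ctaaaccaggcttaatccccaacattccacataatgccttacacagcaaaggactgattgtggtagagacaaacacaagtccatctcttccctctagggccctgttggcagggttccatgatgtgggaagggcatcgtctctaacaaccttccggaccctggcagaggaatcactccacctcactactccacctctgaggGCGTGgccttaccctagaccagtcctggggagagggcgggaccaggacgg
Eno2, chr6:124769674-124769923, minus strand: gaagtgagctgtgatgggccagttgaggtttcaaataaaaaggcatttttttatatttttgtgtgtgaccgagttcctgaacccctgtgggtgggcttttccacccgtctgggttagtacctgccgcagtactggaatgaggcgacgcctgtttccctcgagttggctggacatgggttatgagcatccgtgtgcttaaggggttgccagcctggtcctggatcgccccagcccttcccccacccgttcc
Eno1, chr4:150236458-150236707, plus strand: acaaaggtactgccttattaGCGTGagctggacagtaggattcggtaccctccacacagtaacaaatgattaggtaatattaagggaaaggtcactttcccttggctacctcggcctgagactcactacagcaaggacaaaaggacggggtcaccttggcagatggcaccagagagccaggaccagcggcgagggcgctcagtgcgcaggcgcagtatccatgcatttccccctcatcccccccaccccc
Ldha, chr7:46846832-46847081, plus strand: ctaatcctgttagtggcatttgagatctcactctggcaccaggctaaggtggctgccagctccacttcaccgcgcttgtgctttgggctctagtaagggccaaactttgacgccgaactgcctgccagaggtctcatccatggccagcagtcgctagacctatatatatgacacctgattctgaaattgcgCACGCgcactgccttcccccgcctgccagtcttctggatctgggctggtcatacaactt
Adm, chr7:110627407-110627656, plus strand: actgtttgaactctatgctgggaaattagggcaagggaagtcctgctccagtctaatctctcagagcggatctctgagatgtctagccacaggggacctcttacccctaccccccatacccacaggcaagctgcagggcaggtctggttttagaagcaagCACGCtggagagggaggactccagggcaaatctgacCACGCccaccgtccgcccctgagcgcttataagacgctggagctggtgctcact
Such short letters are common: 28 of the 34 windows (82.4%), 1 per gene, held at least 1 match. With every listed window of these genes counted, 39 of 49 (79.6%) held a match. Counted the same way, 38.6% of all 32851 RefSeq windows and 54.7% of the 12897 windows of genes tested held one. Among genes with a sequence, matches stood in 4 of 5 called higher, 7 of 8 called lower and 17 of 21 not called. Their presence did not separate the directions among these genes. Slc2a3, Bnip3l and Ndrg1, all called higher, had no sequence on hand and are left out of these counts. ACGTG is also part of CACGTG, the E-box letters read by other factors, which 5 of the 34 windows held. Over every listed window, CACGTG stood in 7 of 49 (14.3%), beside 8.17% of the windows of genes tested. Eno2 had no match in its window and Adm had 2. Vegfa also had none, but its window lay 1021 bases from the principal start. These matches are descriptions of letters, not binding sites.

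Glucose entry differed by transporter. Slc2a1 encodes GLUT1, the main basal glucose transporter, and was at 51.7, 50.7 and 54.1 CPM in verapamil replicates 1 to 3, against 57.5 and 60.1 CPM in control replicates 1 and 3. Its verapamil values were all below the controls, but the difference did not pass the test (log2 fold change -0.17, SE 0.0962, adjusted p = 0.226). Slc2a3 encodes the high-affinity transporter GLUT3 and was at 3.25, 3.20 and 3.25 CPM with verapamil, against 1.26 and 1.15 CPM in controls. It rose by 1.42 on the log2 scale, with an SE of 0.197 (adjusted p = 0.00442), from 194 reads with verapamil and 55 in controls. Slc2a6, a transporter of intracellular membranes in myeloid cells, overlapped between groups (8.08 to 10.5 CPM against 8.88 and 11.2 CPM, adjusted p = 0.601). Per transcript length, Slc2a3 still made up only 3.79 to 3.95% of the 3 transporters with verapamil, against 1.37 and 1.27% in controls.

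Hexokinases, which phosphorylate glucose and so trap it, differed by isoform, with Hk2 and Hk3 higher and Hk1 not called. Hk3, an isoform typical of myeloid cells, was at 398, 390 and 395 CPM with verapamil, against 168 and 165 CPM in controls. The 3 verapamil libraries lay close together and far above both controls (log2 fold change 1.24, SE 0.0892, adjusted p = 0.00065). Hk2, the inducible isoform that binds mitochondria, was at 70.8, 77.2 and 78.6 CPM with verapamil, against 30.7 and 40.1 CPM in controls (log2 fold change 1.09, SE 0.145, adjusted p = 0.00381). Hk1, the isoform found in most tissues, was at 95.6, 104 and 99.3 CPM with verapamil, against 81.5 and 99.5 CPM in controls, and the groups overlapped (log2 fold change 0.14, SE 0.119, adjusted p = 0.418). The 3 hexokinase genes together came to 565 to 573 CPM with verapamil, against 280 and 305 CPM in controls. Hk3 lies at chr13:55005985-55021475 and Hk2 at chr6:82725025-82774454 on GRCm38. Per transcript length, Hk3 was 74.8 to 76.7% of hexokinase RNA with verapamil, against 66.1 and 60.8% in controls, and Hk1 15.4 to 16.6% against 26.8 and 30.6%. Neutrophils also express Hk3. Their summed markers given above were low in every library and came mostly from Mmp8 and S100a8. The sum was lower with verapamil, while S100a8 alone overlapped between groups and was not called (adjusted p = 0.4345). Any part of such cells in the Hk3 values was not tested.

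Gpi1, the isomerase that makes fructose 6-phosphate, was at 323 to 360 CPM with verapamil, against 437 and 336 CPM in controls (log2 fold change -0.19, adjusted p = 0.33). Control replicate 3 lay inside the verapamil range, and the estimate was 0.02 without control replicate 1. At the committing step, Pfkl, the liver-type phosphofructokinase, was at 69.3, 65.5 and 64.9 CPM with verapamil, against 94.1 and 81.8 CPM in controls. It fell by 0.40 on the log2 scale, with an SE of 0.105 (adjusted p = 0.0376). That call was lost when verapamil replicate 1, 2 or 3 was left out (adjusted p = 0.12, 0.161 and 0.171), fits that have fewer residual degrees of freedom. Without a filter on low counts the Pfkl call was also just missed (adjusted p = 0.0539). Pfkp, the platelet type, was at 62.1 to 66.0 CPM against 53.2 and 55.03 CPM (log2 fold change 0.24, adjusted p = 0.112), and Pfkm, the muscle type, overlapped between groups (14.0 to 16.6 CPM against 15.01 and 15.2 CPM). Per length, Pfkl was 45.6 to 47.2% of phosphofructokinase RNA with verapamil, against 58.3 and 54.2% in controls. Pfkfb3 and Pfkfb4 encode the enzymes that set the level of fructose 2,6-bisphosphate, the activator of phosphofructokinase, and neither passed the test. Pfkfb3 was at 57.6 to 68.7 CPM against 43.8 and 57.5 CPM (log2 fold change 0.34, adjusted p = 0.155), and Pfkfb4 at 28.5 to 29.8 CPM against 27.5 and 36.0 CPM.

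Aldolase, which splits fructose 1,6-bisphosphate, showed the largest rise of the 37 genes. Aldoc, the isoform best known from brain, was at 63.5, 51.0 and 51.9 CPM with verapamil, against 18.9 and 17.3 CPM in controls. It rose by 1.61 on the log2 scale, with an SE of 0.146 (adjusted p = 0.00118) and lies at chr11:78323073-78327781. Aldoa, the main isoform, was at 1214, 1110 and 1133 CPM with verapamil, against 1596 and 1154 CPM in controls. Control replicate 3 lay inside the verapamil range, the test was not passed (log2 fold change -0.25, SE 0.151, adjusted p = 0.251), and without control replicate 1 the estimate was 0.00. Aldoc therefore remained a small part of aldolase RNA per length, at 2.42 to 2.76% with verapamil against 0.639 and 0.807% in controls.

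The single-gene steps of the lower pathway were lower by estimate or close to the controls, and 1 of these 5 genes was called. Tpi1, the triosephosphate isomerase, was at 243, 223 and 237 CPM with verapamil, against 319 and 262 CPM in controls (log2 fold change -0.31, adjusted p = 0.0994). Gapdh, the dehydrogenase often used as a reference gene, was at 1178, 1064 and 1133 CPM with verapamil, against 1506 and 1343 CPM in controls. Its log2 fold change of -0.34 (SE 0.103) narrowly missed the threshold (adjusted p = 0.0556). Gapdh passed with upper quartile scaling (adjusted p = 0.0412), a stricter filter on low counts (0.0451) and the transcript length trend removed (0.02). It was not called with DESeq2 size factors (0.0622), no filter (0.0725), the DESeq2 test (0.0545) or a replicate block (0.296). Nor was it called without verapamil replicate 1, 2 or 3 (0.148, 0.234 and 0.206). The estimate was always lower, at -0.25 without control replicate 1 and -0.42 without control replicate 3. Pgk1, the first enzyme of the pathway that makes ATP, was at 371 to 414 CPM against 480 and 405 CPM (adjusted p = 0.303), and Pgam1, the mutase, at 427 to 477 CPM against 452 and 402 CPM (adjusted p = 0.626). Pkm encodes pyruvate kinase, and counts per gene do not separate its M1 and M2 isoforms. It was at 1182, 1109 and 1121 CPM with verapamil, against 1583 and 1370 CPM in controls, and fell by 0.38 on the log2 scale, with an SE of 0.104 (adjusted p = 0.0434). The Pkm call did not hold on leaving out verapamil replicate 1, 2 or 3 (adjusted p = 0.134, 0.187 and 0.187) and without a filter on low counts (adjusted p = 0.0536). In all, 18 enzyme genes from hexokinase to lactate dehydrogenase summed to 6155 to 6655 CPM with verapamil, against 8261 and 6827 CPM in controls.

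Enolase, which makes phosphoenolpyruvate, held the largest difference of the 8 within-step ratios given below. Eno1, the general isoform, was at 382, 357 and 357 CPM with verapamil, against 807 and 569 CPM in controls. All verapamil values lay below both controls, which differed from each other more than the verapamil libraries did. Eno1 fell by 0.91 on the log2 scale, with an SE of 0.156 (adjusted p = 0.00917), by 1.14 without control replicate 3 and by 0.63 without control replicate 1. Eno2, the isoform named for neurons, was at 20.6, 25.7 and 24.4 CPM with verapamil, against 11.7 and 10.2 CPM in controls, and rose by 1.10 (SE 0.147, adjusted p = 0.00381). Eno1 lies at chr4:150236708-150248879 and Eno2 at chr6:124760053-124769673. Per length, Eno2 was 3.76 to 4.96% of both with verapamil, against 1.04 and 1.28% in controls. Eno1b, a near copy of Eno1 that can take reads from it and was named after its values were seen, was not called (adjusted p = 0.101). It was at 0.59 to 0.739 CPM with verapamil, against 1.71 and 0.939 CPM in controls.

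Both lactate dehydrogenase genes fell. Ldhb encodes the H subunit, known for favouring lactate oxidation, and was at 25.0, 23.7 and 25.4 CPM with verapamil, against 60.1 and 52.4 CPM in controls. It fell by 1.19 on the log2 scale, with an SE of 0.112 (adjusted p = 0.00127) and lies at chr6:142490249-142507957. Ldha encodes the M subunit, known for pyruvate reduction, and was at 382, 355 and 370 CPM with verapamil, against 548 and 450 CPM in controls. Ldha fell by 0.43 (SE 0.114, adjusted p = 0.0378), which was not called on leaving out verapamil replicate 1, 2 or 3 (adjusted p = 0.125, 0.162 and 0.152), and the estimate was -0.28 without control replicate 1. Because Ldhb fell further, Ldha made up 91.5 to 91.9% of lactate dehydrogenase RNA per length with verapamil, against 87.1 and 86.4% in controls.

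The lactate transporters moved in opposite directions. Slc16a1 encodes MCT1, which carries lactate either way with high affinity, and was at 21.6, 21.02 and 20.6 CPM with verapamil, against 15.6 and 14.9 CPM in controls. It rose by 0.47 on the log2 scale, with an SE of 0.105 (adjusted p = 0.0228). Slc16a3 encodes MCT4, the exporter of strongly glycolytic cells, and was at 27.2, 27.0 and 25.0 CPM with verapamil, against 42.5 and 32.7 CPM in controls. It fell by 0.51 (SE 0.141, adjusted p = 0.0443). Per length, Slc16a1 made up 43.2 to 44.6% of both with verapamil, against 26.5 and 30.8% in controls. Neither call held without verapamil replicate 1, 2 or 3 (adjusted p = 0.114, 0.118 and 0.107 for Slc16a1, and 0.132, 0.142 and 0.172 for Slc16a3), and the Slc16a1 call was lost under upper quartile scaling (log2 fold change 0.35, adjusted p = 0.0741). The Slc16a3 call was also lost without a filter on low counts (adjusted p = 0.053), and its estimate was -0.30 without control replicate 1. Bsg, the chaperone that both transporters need at the membrane, was at 193 to 219 CPM with verapamil, against 344 and 249 CPM in controls (log2 fold change -0.52, adjusted p = 0.0512), and was named after its values were seen.

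**Figure D2:**
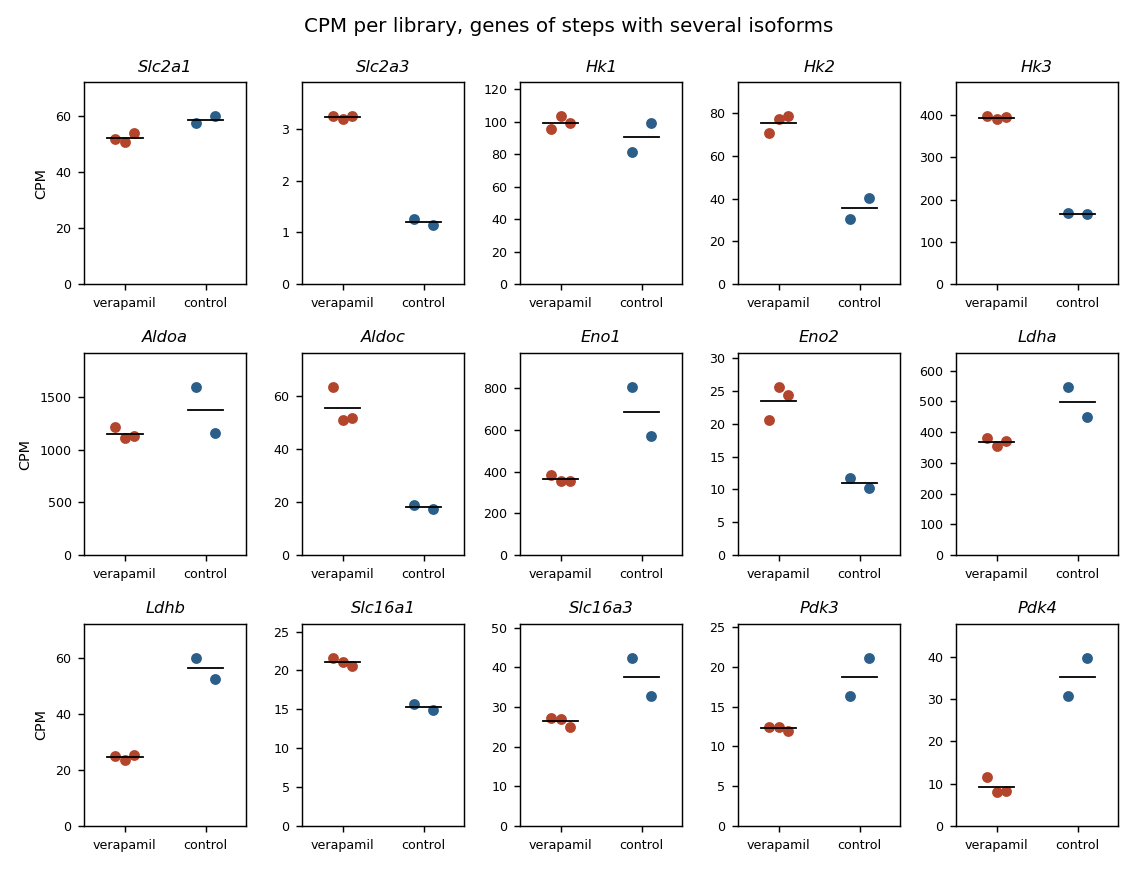
CPM after TMM scaling (y axis, from 0) in each library, with verapamil on the left (3 red points) and control on the right (2 blue points), for 15 genes of steps with several isoforms. Black lines are group means. Hk3, Aldoc, Eno2 and Slc2a3 sit higher with verapamil, while Eno1, Ldhb and Pdk4 sit lower.

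A ratio of 2 genes within 1 library does not depend on how libraries are scaled, so 8 pairs of genes of 1 step were also compared that way. The pairs were picked by hand, and other pairs of the same steps were not compared. The Eno2 to Eno1 ratio per length was 0.039, 0.0521 and 0.0495 with verapamil, against 0.0105 and 0.013 in controls, a log2 difference of 1.99. For Aldoc to Aldoa the ratios were 0.0284, 0.0249 and 0.0248 with verapamil, against 0.00643 and 0.00813 in controls, a log2 difference of 1.85. The Hk3 to Hk1 ratio was 4.98, 4.51 and 4.75 with verapamil, against 2.46 and 1.99 in controls. Slc16a1 to Slc16a3 ratios were 0.78, 0.762 and 0.806 with verapamil, against 0.361 and 0.445 in controls, a log2 difference of 0.97. In all 8 pairs the groups did not overlap. The first gene of every pair was a called gene with ranges apart, so the choice of pairs favoured this separation. With 3 libraries against 2, an exact permutation test over libraries (two-sided) cannot go below 0.1, and all 8 pairs stood at that value (also 0.1 after Benjamini-Hochberg adjustment over the 8), so this test could not pass a threshold of 0.05.

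**Figure D3:**
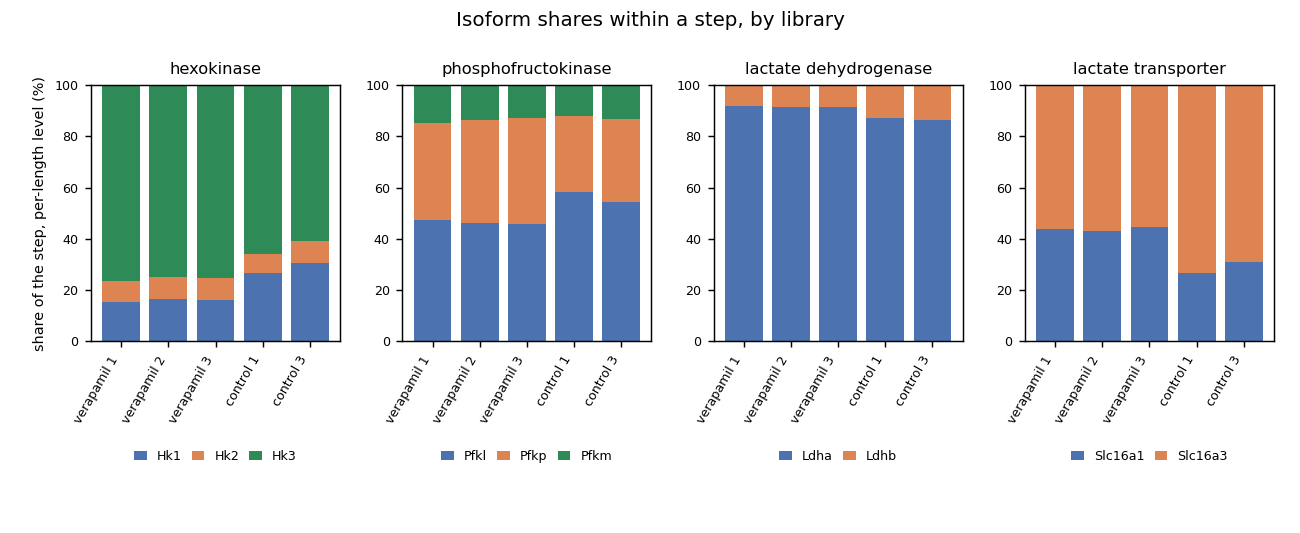
Share of each step's per-length level (y axis, percent) taken by each gene, for hexokinases, phosphofructokinases, lactate dehydrogenases and lactate transporters, in each library from verapamil 1 to control 3. Hk3, Ldha and Slc16a1 take larger shares in the 3 verapamil libraries, and Hk1, Pfkl, Ldhb and Slc16a3 smaller ones.

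Among the regulators of the pyruvate dehydrogenase complex, the kinase genes Pdk3 and Pdk4 fell and the phosphatase genes Pdp1 and Pdp2 rose. The kinase genes Pdk1 and Pdk2 were not called. Nor was Pdpr, the phosphatase regulatory subunit, named after its values were seen. It was at 43.5 to 51.2 CPM with verapamil, against 29.5 and 52.6 CPM in controls (adjusted p = 0.547). Of the pyruvate dehydrogenase kinases, which switch the complex off, Pdk3 was at 12.4, 12.5 and 11.9 CPM with verapamil, against 16.3 and 21.2 CPM in controls. Pdk3 fell by 0.61 on the log2 scale, with an SE of 0.143 (adjusted p = 0.0256), a call that did not hold on leaving out verapamil replicate 1, 2 or 3 (adjusted p = 0.101, 0.0973 and 0.113) and after removal of the length trend (adjusted p = 0.0733). Pdk1, a HIF target, was at 36.7 to 37.5 CPM against 39.4 and 57.6 CPM (log2 fold change -0.39, adjusted p = 0.141), and Pdk2 at 13.0 to 15.4 CPM against 18.2 and 17.8 CPM (log2 fold change -0.32, adjusted p = 0.101). Pdk1 passed after removal of the length trend (adjusted p = 0.0135) and without control replicate 1 (log2 fold change -0.63, adjusted p = 0.000517), and its estimate was -0.09 without control replicate 3. In a companion list of 22 genes of pyruvate use and lactate partners, 3 were higher and 5 lower, with a median of -0.05 (36.4% called). In that list, Pdk4, the kinase induced by fasting, fell by 1.93 on the log2 scale, with an SE of 0.197 (adjusted p = 0.0016), at 11.5, 8.11 and 8.23 CPM with verapamil, against 30.7 and 39.7 CPM in controls. The phosphatases that switch the complex back on rose, Pdp1 by 1.05 (82.2 ± 2.66 CPM, SD, n = 3, against 39.6 ± 2.34 CPM, SD, n = 2; edgeR adjusted p = 0.00134) and Pdp2 by 1.02 (30.9 ± 4.63 CPM, n = 3, against 15.3 ± 0.869 CPM, n = 2; edgeR adjusted p = 0.00635). Mpc2, a subunit of the mitochondrial pyruvate carrier, fell by 0.78 (adjusted p = 0.0286, lost without verapamil replicate 1, 2 or 3 at 0.0957, 0.108 and 0.104). Leaving out control replicate 1 gave a log2 fold change of -0.43, and leaving out control replicate 3 gave -1.06. Its partner Mpc1, named after its values were seen, rose by 0.65 (adjusted p = 0.035).

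Other genes of sugar metabolism were taken from lists chosen with earlier results of these data known. Of 18 tested further glycolysis genes, edgeR called 0 in either direction (3 had an unadjusted p under 0.05, and the DESeq2 test called 0 higher and 0 lower), with a median of -0.03. Of 15 tested glycogen genes 3 were higher and 1 lower, with a median of 0.08, and the share called (26.7%) was close to the 25.4% of all genes tested. Gyg, the glycogenin that primes glycogen chains, was at 404, 349 and 356 CPM with verapamil, against 159 and 131 CPM in controls, a rise of 1.36 on the log2 scale, with an SE of 0.132 (adjusted p = 0.0014). Ppp1r3b, a subunit that targets a phosphatase to glycogen, rose by 0.72 (adjusted p = 0.017, but 0.0607, 0.0594 and 0.0785 without verapamil replicate 1, 2 and 3). Stbd1, a glycogen-binding protein, fell by 1.65 from low counts (adjusted p = 0.0194, but 0.0526 and 0.0784 without verapamil replicate 2 and 3).

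The hypoxia genes did not move as a group. Hif1a, the oxygen-regulated subunit of HIF-1, which is controlled mainly at the protein level, was at 137, 146 and 147 CPM with verapamil, against 156 and 235 CPM in controls. All verapamil values were below the controls, but the controls differed widely and the test was not passed (log2 fold change -0.45, SE 0.176, adjusted p = 0.111). Hif1a was called lower under upper quartile scaling (adjusted p = 0.0396), after removal of the length trend (adjusted p = 0.024) and without control replicate 1 (log2 fold change -0.71, adjusted p = 0.000114), and its estimate was -0.12 without control replicate 3. Egln1 encodes the main prolyl hydroxylase that senses oxygen, and was at 52.2 to 54.3 CPM with verapamil, against 52.6 and 51.1 CPM in controls (log2 fold change 0.04, adjusted p = 0.792). Egln3, a hydroxylase that HIF itself induces, rested on 40 reads with verapamil and 42 in controls (adjusted p = 0.435).

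Among HIF targets the values went both ways. Ndrg1, a stress-induced gene, was at 79.3, 75.1 and 77.6 CPM with verapamil, against 36.9 and 38.6 CPM in controls, and rose by 1.03 on the log2 scale, with an SE of 0.0975 (adjusted p = 0.00128). Bnip3l, a mitophagy receptor, was at 201, 190 and 189 CPM with verapamil, against 139 and 130 CPM in controls, and rose by 0.52 (SE 0.0936, adjusted p = 0.0106). The Bnip3l call did not hold on leaving out verapamil replicate 1, 2 or 3 (adjusted p = 0.0714, 0.0643 and 0.068). Its relative Bnip3 was at 26.7, 29.4 and 28.4 CPM with verapamil, against 33.5 and 34.3 CPM in controls, and did not pass the test (log2 fold change -0.27, adjusted p = 0.11), though it did under upper quartile scaling (adjusted p = 0.0374). Adm, which encodes the vasodilator peptide adrenomedullin, was at 2.90, 2.12 and 1.68 CPM with verapamil, against 6.83 and 9.01 CPM in controls. It fell by 1.82 on the log2 scale, with an SE of 0.258 (adjusted p = 0.00472), from 134 reads with verapamil and 363 in controls. Vegfa, the angiogenic growth factor, was at 53.8, 62.3 and 62.1 CPM with verapamil, against 49.6 and 69.5 CPM in controls, so that the controls bracketed the verapamil values (log2 fold change 0.00, SE 0.167, adjusted p = 0.988). Ankrd37, a small ankyrin protein, rested on 47 reads with verapamil and 63 in controls (log2 fold change -0.82, SE 0.397, adjusted p = 0.174).

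**Figure D4:**
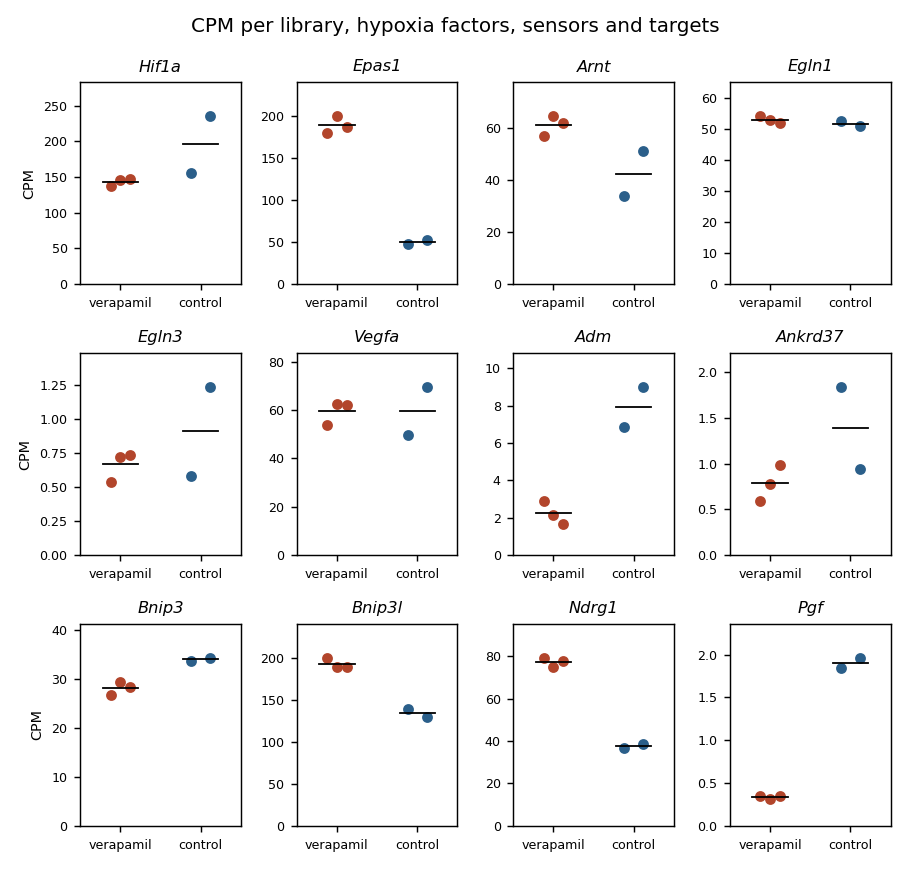
CPM after TMM scaling (y axis, from 0) in each library, with verapamil on the left (3 red points) and control on the right (2 blue points), for hypoxia factors, oxygen sensors and targets. Black lines are group means. Epas1 and Ndrg1 sit higher and Adm and Pgf lower with verapamil, while Vegfa and Egln1 overlap.

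Further lists put these values in context. Of 17 tested genes of oxygen sensing and HIF partners 1 was higher and 1 lower (median 0.07, 11.8% called). The higher one was Epas1, which encodes HIF-2 alpha, at 180, 200.4 and 187 CPM with verapamil, against 47.9 and 52.1 CPM in controls (log2 fold change 1.92, SE 0.108, adjusted p = 0.000437). Arnt, the constant partner of both alpha subunits, was at 57.2, 64.8 and 62.1 CPM with verapamil, against 33.8 and 51.3 CPM in controls, and was not called (log2 fold change 0.53, adjusted p = 0.0891; named after its values were seen). The lower one was Arntl, the clock factor related to the HIF partner Arnt (log2 fold change -0.70, adjusted p = 0.0229, but 0.0953, 0.0955 and 0.0829 without verapamil replicate 1, 2 and 3). Of 46 tested other genes that hypoxia is known to raise in various cells 8 were higher and 12 lower, with a median of -0.20 (43.5% called). Bhlhe41, a repressor of the clock family, rose by 1.31 (354 ± 19.4 CPM, SD, n = 3, against 143 ± 15.4 CPM, SD, n = 2; edgeR adjusted p = 0.00107). Nos2, the inducible nitric oxide synthase, was at 0.443, 0.568 and 0.592 CPM with verapamil, against 0.18 and 0.171 CPM in controls. Its rise of 1.58 (adjusted p = 0.0398) was no longer called without a filter on low counts (adjusted p = 0.0689), with DESeq2 (0.168), and without verapamil replicate 1 (0.0792), control replicate 1 (0.101) or control replicate 3 (0.077). Pgf, the placental growth factor, fell by 2.49 from a low level (0.344, 0.31 and 0.345 CPM with verapamil, against 1.84 and 1.96 CPM in controls; adjusted p = 0.00195), and Edn1, the endothelin precursor, by 1.92 (adjusted p = 0.00881). Kdr, a receptor for the Vegfa product that stood in the endothelial marker list and was named after its values were seen, was at 27.2 to 32.3 CPM with verapamil, against 2.97 and 5.38 CPM in controls (log2 fold change 2.84, adjusted p = 0.00118), while the endothelial marker Cdh5, also named after its values were seen, had 18 reads with verapamil and 30 in controls, too few to be tested.

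Some counts carry a limit of annotation. The labels do not say whether counting used strand, and other genes' exons cover 26.4% of the exon bases of Ankrd37, 22.25% of Bnip3, 15.3% of Pkm and 11.5% of Gpi1. Gapdh, Ldha, Pgk1, Eno1, Aldoa and Tpi1 are known for processed copies elsewhere in the genome, and how the authors shared reads between copies is not given in the sources used here, so their levels are uncertain to that extent.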

How the data were processed

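The authors deposited estimated counts per gene, which carry decimals and, judged from their values, are not normalized. Per the submitters' processing notes the builds were GRCm38 and mm10. For the aligner, the counter and the annotation, the version is not given in the sources used here, nor is the name. Per the labels, libraries were made from 1.3 ug of total RNA. The 3 verapamil libraries and control replicates 1 and 3 were compared. After rounding the counts, edgeR 4.0.16 under R 4.3.3 applied TMM factors and its expression filter (minimum count 10, minimum total count 15), then fitted a quasi-likelihood model with group as the only term (3 residual degrees of freedom, biological coefficient of variation 15.3%). Fold changes are verapamil over control. Each standard error is the size of the log2 fold change over the square root of its F statistic. The script was tested on simulated data.

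Per-length levels divide deposited counts by the length of the principal GENCODE M21 transcript and compare genes only within a library. Motif letters were searched in RefSeq promoters. Genes named beyond the 37 are, by rule, up to 2 called genes per direction and list with the largest change and ranges apart; cell type markers are named as markers, and others are marked. The members and all lists were chosen with earlier results of these data known. Alternatives were DESeq2 1.42.0 size factors, upper quartile factors, other filters, the DESeq2 Wald test, a replicate block, removal of the length trend, and leaving out each library.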

Additional observations from a re-analysis of the deposited data

How the results depend on the processing

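Of the 16 called members, 9 (Slc2a3, Hk2, Hk3, Aldoc, Eno1, Eno2, Ldhb, Adm and Ndrg1) stayed called in all 12 alternatives, 7 (Pfkl, Pkm, Ldha, Pdk3, Slc16a1, Slc16a3 and Bnip3l) lost the call in at least 1, and 0 changed sign. Leaving out each library in turn gave 1460 to 7808 called genes in all (3200 with every library; fewest without verapamil replicate 3, most without control replicate 3), 7 to 22 called glycolysis and lactate members (13; 7 without any verapamil library, 22 without control replicate 3) and 2 to 4 called hypoxia members (3). With 1 control left, the spread between controls is not measured.

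The fit with the replicate number as a block also leaves out verapamil replicate 2, which has no partner. It called 8 glycolysis and lactate members, 5 higher and 3 lower, against 7 in the same 4 libraries without the block. Pfkl, Pkm, Ldha, Slc16a1 and Slc16a3 were not called with the block (adjusted p = 0.138, 0.202, 0.141, 0.108 and 0.0692), nor in those 4 libraries without it (0.161, 0.187, 0.162, 0.118 and 0.142). In all, 3306 genes were called with the block and 1565 without it. The block leaves fewer residual degrees of freedom than the same 4 libraries without it. These counts therefore do not measure a gain from pairing. The libraries share only a number: deviations from the group means correlated at 0.29 for number 1 and 0.02 for number 3, with 2 pairs. Upper quartile factors gave 5 called hypoxia members (2 higher, 3 lower).

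Sign changes occurred among members that were not called. They were Pfkm, Pgam1 and Egln1 under upper quartile factors (-0.114, -0.049 and -0.084), Pfkm and Egln1 with the stricter filter (-0.040 and -0.008), Hk1 with the length trend removed (-0.001), and Vegfa with DESeq2 size factors (0.005), no filter (0.008) and the DESeq2 test (0.013). When 1 library was left out, estimates ran from -0.287 to 0.051 for Slc2a6, -0.366 to 0.017 for Gpi1, -0.070 to 0.056 for Pfkm, -0.469 to 0.003 for Aldoa, -0.009 to 0.165 for Pgam1, -0.301 to 0.087 for Pfkfb4, -0.881 to 0.190 for Egln3 and -0.223 to 0.261 for Vegfa. The stricter filter removed Egln3 and Ankrd37. The causes of these changes were not tested. Egln3, Ankrd37, Slc2a3 and Adm, and outside the 37 genes Nos2, Pgf, Edn1, Stbd1 and Eno1b, rest on few reads, which limits their precision.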
